A study of Glycine max with 12 samples.

Results

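WRKY transcription factors were examined in the soybean root tip, across seedlings given brassinolide, an inhibitor of brassinosteroid synthesis, both, or neither. The members were defined by their protein domains, not by measured values. They are the 173 rows of the count table with a soybean gene identifier whose Pfam annotation holds the WRKY DNA-binding domain (PF03106) and not the NB-ARC domain (PF00931), out of 52872 annotated genes. The transcription factor family column of the same table names 173 WRKY genes as well, and 1 further row that carries both domains was left out.

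WRKY proteins are plant transcription factors named after a short conserved peptide that begins with the residues W, R, K and Y, which is followed by a zinc finger. The domain binds the W-box, a short motif found in the promoters of many defence and stress genes, including those of WRKY factors themselves. Members of the family act downstream of immune receptors, salicylic acid and jasmonate, in responses to drought, salt and cold, and in root and epidermal development. Brassinosteroids are steroid hormones that promote cell elongation and division, and in Arabidopsis a few WRKY proteins are known to act together with the brassinosteroid-regulated transcription factors in growth and in defence.

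The data were 12 RNA-seq libraries of the apical 1 cm of the root, 3 in each of 4 groups, from soybean seedlings that had germinated for 3 days, were grown in hydroponic medium and had the same age at harvest in every group. BL seedlings received brassinolide, the most active natural brassinosteroid, at 0.01 nM for 0.5 days. PPZ seedlings received propiconazole, a triazole fungicide that blocks brassinosteroid synthesis, at 0.1 μM for 2.5 days. PPZ plus BL seedlings received PPZ for 2 days and then BL for 0.5 days according to the series description, whereas their treatment label names the agents in the other order. Mock seedlings received neither agent, and the labels do not say whether they were matched to the BL or the PPZ schedule. The labels name the cultivar Wm82 for every group, whereas the methods of the study name another genotype, and the hormone is written both as BL and as eBL in the series text. Which of these holds is not known here. The methods of the study describe the mock, BL and PPZ libraries as biological replicates and do not speak of the PPZ plus BL libraries, so that a p-value measures the spread between these libraries and may in part be technical.

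Total counts per library lay between 18450894 and 24815541, and the WRKY genes took between 0.3211% and 0.5846% of them. Root cap genes (PF06830, 9 genes) were present in every library, with summed levels between 89.5 and 129.5 CPM in mock, 458 and 488 in BL, 157 and 196 in PPZ, and 171 and 239 after PPZ plus BL. CPM are counts divided by the TMM-adjusted size of their library, on a common scale for the 12 libraries. Core histones (64 genes) summed to 2611 ± 189.8 CPM in mock (SD, n = 3), 5635 ± 438 in BL, 3709.6 ± 413 in PPZ and 3699 ± 796 after PPZ plus BL. The whole Casparian strip membrane protein family (PF04535, 80 genes) summed to 660.3 ± 164, 903 ± 92.5, 1117 ± 34.7 and 979 ± 116 CPM. Genes of green tissue were detected as well. The chlorophyll a-b binding family summed to 241 ± 76.6 CPM in mock, 429 ± 64.1 in BL, 219 ± 31.9 in PPZ and 550.2 ± 94.8 after PPZ plus BL, whereas the RuBisCO small chain was highest in mock, at 369.8 ± 41 CPM against 157 ± 9.07, 189.7 ± 33.6 and 176 ± 17. Globins summed to 1722 ± 232 CPM in mock, 1045 ± 182 in BL, 2067 ± 131 in PPZ and 973 ± 156 after PPZ plus BL, lower in both groups given BL. These families moved between the groups beside the WRKY genes, and their part in the results below was not tested. In bulk tissue, fewer cells that express a gene and less RNA per cell cannot be told apart.

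The 173 WRKY genes lay on all 20 chromosomes, with between 2 and 14 members on each. At least 1 count was found for 167 of them, while 6 had none in any library. Over the 12 libraries, 97 members had a mean of at least 10 CPM, 135 had at least 1 CPM and 38 stayed under 1 CPM. Because rarely counted genes carry no test, 155 members were tested in at least 1 comparison and 18 in none. A RefSeq gene was matched by position to 139 members, and 48 of these have a WRKY symbol there, which is given in brackets below. These symbol numbers are those of soybean genes and do not follow the Arabidopsis numbering.

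The summed level of the 173 genes was highest in the PPZ group. It was 3390, 3641 and 4119 CPM in the mock libraries, 3108, 3893 and 3672 in BL, 6523, 5517 and 5459 in PPZ, and 4037, 3401 and 3340.4 after PPZ plus BL. Every PPZ library lay above the other 9, and the mock, BL and PPZ plus BL ranges overlapped one another. The group means were 3717 ± 370.4 CPM in mock (SD, n = 3), 3558 ± 405 in BL, 5833 ± 598 in PPZ and 3593 ± 386 after PPZ plus BL. The increases of the 10 members that rose most summed to 40.9% of the net difference of 2116 CPM between PPZ and mock. That net difference includes members that fell, and how the remainder was spread over the family was not computed. Of the 173 members, 119 had a higher mean CPM in PPZ than in mock, 47 a lower one and 7 an equal one.

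**Figure D1:**
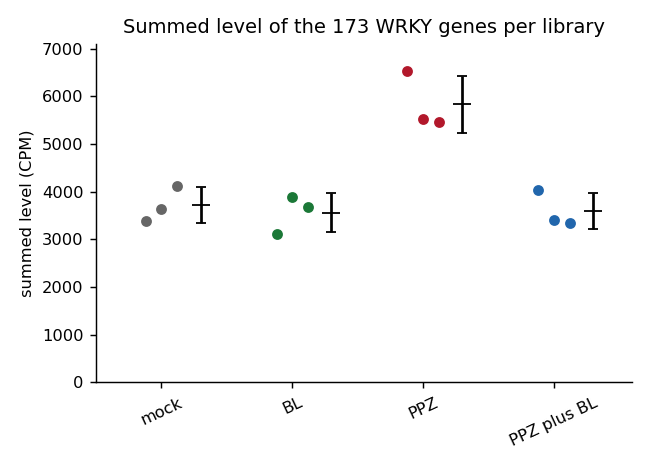
Summed level of the 173 WRKY genes in each of the 12 libraries, in CPM after TMM normalization (vertical axis), by group; points are libraries, and the bar beside them is the mean with its SD (n = 3). The PPZ libraries sit between 5459 and 6523 CPM and the other 9 between 3108 and 4119 CPM.

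The order of the levels was also described gene by gene over all 173 members, tested or not. The PPZ group had the highest mean of the 4 groups for 97 members (56.1%), against 23.0% of all 53852 rows of the table. All 3 PPZ libraries lay above the other 9 for 67 members (38.7%), against a background of 8.42% of all rows, and below them for 5 members (2.89%, background 5.37%). Mock had the lowest mean for 71 members (41.0%, against 30.5% of all rows), and its 3 libraries lay below the other 9 for 28 (16.2%, background 9.03%). In contrast, the 3 BL libraries lay above the other 9 for 1 member (0.578%, background 4.89%), and the 3 PPZ plus BL libraries for 5 (2.89%, background 2.55%). These are counts of order without a test.

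The 5 WRKY genes with the highest mean CPM were not called in any comparison. Per kilobase of the gene length given in the deposited table, the highest mean level belonged to Glyma.04G076200 (WRKY50), at 110 CPM per kb, followed by Glyma.05G160800 and Glyma.08G118200 (WRKY48), both at 66.9 CPM per kb. Glyma.04G076200 belongs to group IId of the family, whose members carry a plant zinc cluster domain (PF10533) ahead of the WRKY domain and bind calmodulin in Arabidopsis. Its level was 138, 115 and 144 CPM in mock, 100.4, 125 and 160.4 in BL, 299, 258 and 233 in PPZ, and 162, 136 and 130 after PPZ plus BL. The PPZ libraries stood above all others, by a log2 fold change of 1.00 ± 0.15 (SE) over mock with an adjusted p of 2.82e-03 (edgeR quasi-likelihood test), which is below the fold threshold used for calls. Glyma.06G077400, another group IId member, had 86.7, 75 and 87.3 CPM in mock and 187, 153 and 149 in PPZ, with a log2 fold change of 0.98 ± 0.14 (adjusted p = 2.12e-03). Glyma.15G110300, also abundant, had 114, 153 and 161 CPM in mock, 118, 164 and 155 in BL, 153, 139 and 176 in PPZ, and 137, 146 and 142 after PPZ plus BL. The 4 groups of this gene overlapped, and its log2 fold changes over mock were 0.04 ± 0.18 after BL, 0.14 ± 0.17 after PPZ and 0.00 ± 0.16 after both. Glyma.02G232600 had 139, 177 and 209 CPM in mock and 200.1, 151 and 167 in PPZ (log2 fold change −0.01 ± 0.19, adjusted p = 0.967). Glyma.09G005700 (WRKY23) had 88.2, 105 and 128 CPM in mock and 175, 139.7 and 152 in PPZ, a log2 fold change of 0.54 ± 0.17 with an adjusted p of 0.0364.

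PPZ against mock asks what follows when brassinosteroid synthesis is inhibited. In this and the other comparisons of 2 groups, a gene was called when its adjusted p in edgeR's quasi-likelihood test on the 6 libraries concerned was at most 0.01 and it differed 3-fold or more, which are the thresholds of the study. Compared with the mock treatment, 38 of the 149 WRKY genes tested were called higher after PPZ, where 6.32% of all 36297 genes tested were, and 1 was called lower, where 2.92% were. The log2 fold changes of the 38 lay between 1.59 and 8.14, with a median of 2.75. Over the 149 members, 107 log2 fold changes were above 0 and 42 below, the median was 0.59 and the middle 50% lay between −0.06 and 1.68, beside a median of 0.00 over all genes tested. Of the 38, 10 had fewer than 10 counts in every mock library, and such genes could be tested through their PPZ libraries alone.

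**Figure D2:**
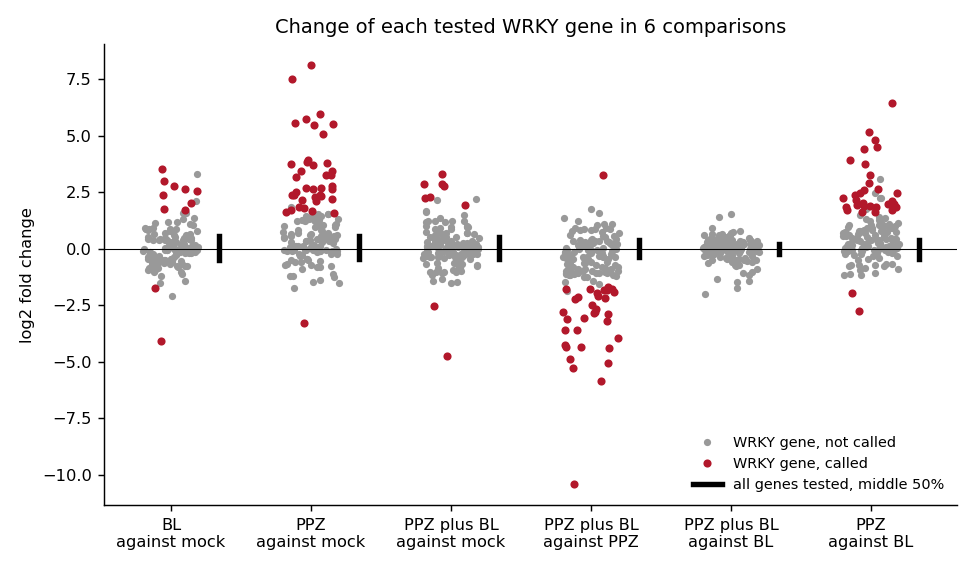
Log2 fold change (vertical axis) of each WRKY gene tested in the 6 comparisons of 2 groups (horizontal axis). Grey points are genes not called, red points those called (adjusted p at most 0.01 and at least 3-fold different), and black bars the middle 50% of all genes tested; 38 red points lie above 0 for PPZ against mock and 33 below 0 for PPZ plus BL against PPZ, and none appears for PPZ plus BL against BL.

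The smallest adjusted p belonged to Glyma.18G213200 (WRKY57; chromosome 18, bases 50298774 to 50300773, Wm82.a4.v1). It had 1.32, 2.41 and 2.45 CPM in the mock libraries and 86.2, 89.0 and 103 in the PPZ libraries. The log2 fold change was 5.49 ± 0.24 (adjusted p = 1.92e-04, edgeR), and the spread within either group was small beside it. Glyma.17G222300 (WRKY30; chromosome 17, 37442938 to 37447673) had 0.509, 1.05 and 0.653 CPM in mock and 29.9, 31.2 and 43.1 in PPZ, a log2 fold change of 5.57 ± 0.29 (adjusted p = 2.21e-04). Both genes remained called when any 1 of the 6 libraries was left out. Glyma.14G103100 (chromosome 14, 10587357 to 10589354) had 0.356, 0.681 and 0.612 CPM in mock and 6.89, 18 and 32 in PPZ. Its PPZ libraries differed from one another more than those of the previous genes, and its log2 fold change was 5.10 ± 0.65 (adjusted p = 1.55e-03). For Glyma.03G002300, levels of 0.305, 0.210 and 0.0408 CPM in mock stood against 3.6, 9.9 and 11.7 in PPZ (log2 fold change 5.54 ± 0.68, adjusted p = 1.38e-03).

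Several members were nearly silent in mock, so that their folds are known only roughly. Glyma.18G238600 (WRKY64) had no count in any mock library and 1.39, 1.11 and 2.61 CPM in PPZ, which is at least 11.8-fold higher when each mock library is given 3 counts. Glyma.13G267600 had 1 count in the 3 mock libraries together and 242 in the PPZ libraries, a ratio of 255 with a 95% exact interval of 45.3 to 10107. Glyma.10G138300 (WRKY1) had 1 mock count and 81 PPZ counts, a ratio of 85.3 (14.9 to 3410.3), and Glyma.09G254400 had 2 and 120, a ratio of 63.2 (17.1 to 528). These intervals cover counting error only. Glyma.16G031400 had 0, 0.105 and 0.0817 CPM in mock and 1.28, 0.503 and 1.16 in PPZ. The calls of these genes were less stable than those above, except for Glyma.13G267600, which was called with any 1 library left out. Glyma.18G238600 lost its call without mock replicate 2, PPZ replicate 1 or PPZ replicate 2, and Glyma.16G031400 without any 1 library other than mock replicate 1. Glyma.10G138300 lost its call without mock replicate 2 or 3 or PPZ replicate 1, and Glyma.09G254400 without mock replicate 2 or PPZ replicate 1.

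Further members are given with their levels in mock and PPZ. Glyma.13G370100 had 3.76, 7.86 and 4.94 CPM in mock and 87.3, 74.7 and 60.5 in PPZ, a log2 fold change of 3.75 ± 0.29 (adjusted p = 4.32e-04). Glyma.19G094100 had 1.93, 3.67 and 5.92 CPM in mock and 46.5, 34.4 and 44.5 in PPZ (3.44 ± 0.36, adjusted p = 9.01e-04). Glyma.10G011300 (WRKY54), a soybean gene that raises drought and salt tolerance when introduced into Arabidopsis, had 15.3, 14.2 and 16.2 CPM in mock and 98.4, 83.0 and 56.4 in PPZ. Its log2 fold change was 2.39 ± 0.20 (adjusted p = 5.41e-04), and no mock library came near a PPZ library. Glyma.04G218700 (WRKY21), a gene studied in cold tolerance, had 0.153, 0.262 and 0.367 CPM in mock and 2.26, 2.06 and 3.53 in PPZ (3.28 ± 0.42, adjusted p = 1.55e-03). Another soybean factor studied in stress tolerance, Glyma.15G003300 (WRKY27), had 32.4, 46.4 and 36.5 CPM in mock and 79.5, 74.1 and 53.8 in PPZ, and its log2 fold change of 0.85 ± 0.19 did not pass (adjusted p = 0.0121). The last 3 of these genes are given for what is known of them and not by a rule on their values.

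The single WRKY gene called lower after PPZ was Glyma.05G123600 (chromosome 5, 31779124 to 31784281). It had 4.12, 2.83 and 1.47 CPM in mock, 1.34, 2.29 and 2.19 in BL, 0.154, 0.452 and 0.242 in PPZ, and 4.47, 2.22 and 1.55 after PPZ plus BL. The PPZ libraries alone stood apart, below all others, with a log2 fold change of −3.27 ± 0.55 against mock (adjusted p = 4.08e-03, edgeR). This call was lost without mock replicate 2 (log2 fold change −3.27) or without PPZ replicate 1 (−2.98), 2 (−3.76) or 3 (−3.17). Without mock replicate 2, the count of WRKY genes called after PPZ dropped from 39 to 24, 23 of them higher, and the calls over all genes from 2294 higher and 1059 lower to 1205 and 567. Of the 38 genes called higher, 21 were called in each of the 6 fits that left out 1 library.

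**Figure D3:**
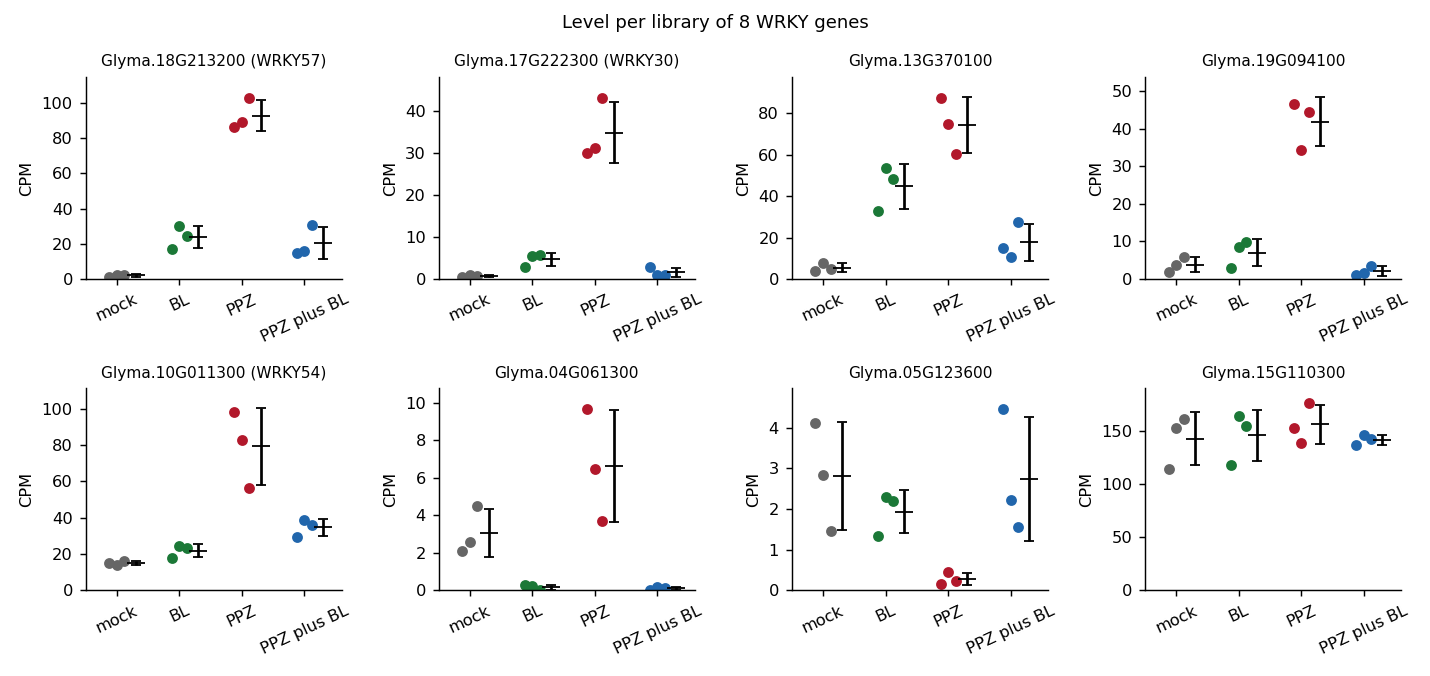
Level in CPM (vertical axis) of 8 WRKY genes in the 12 libraries, by group; points are libraries and the bar beside them is the mean with its SD (n = 3), and each panel has its own axis from 0. The PPZ libraries stand above the others in the first 5 panels (from 86.2 to 103 CPM for Glyma.18G213200), the BL and PPZ plus BL libraries are near 0 for Glyma.04G061300, the PPZ libraries are lowest for Glyma.05G123600, and the groups overlap for Glyma.15G110300.

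PPZ plus BL against PPZ compares seedlings that received both agents with seedlings that received the inhibitor alone. By the series description, PPZ was given for 2 days in the former and 2.5 days in the latter, and whether it was still present during the BL treatment is not stated, so that added BL and a shorter PPZ treatment cannot be told apart. Of 153 WRKY genes tested, 33 were called lower in PPZ plus BL, where 5.61% of all 36401 genes tested were, and 1 was called higher, where 2.16% were. Over the tested members the log2 fold change had a median of −0.58, beside 0.01 over all genes tested. Some of the 33, Glyma.06G062000 and Glyma.18G238600 among them, had fewer than 10 counts in every PPZ plus BL library. Such genes could be tested through their PPZ libraries alone. This comparison shares its PPZ libraries with PPZ against mock, so the values of these comparisons are not independent, and each is given here from its own fit.

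Glyma.06G062000 was found in PPZ at 9.71, 6.99 and 8.17 CPM and had no count in any PPZ plus BL library, which is at least 58.7-fold lower when each of these libraries is given 3 counts. In mock it had 0.407, 0.367 and 0.817 CPM and in BL 0.0813, 0.0849 and 0.104. Glyma.14G102900 had 7.61, 9.2 and 12.2 CPM in PPZ and 0.251, 0.328 and 0.150 after PPZ plus BL, a log2 fold change of −5.26 ± 0.33 (adjusted p = 4.79e-05, edgeR). Its levels in mock, at 0.763, 2.10 and 1.59 CPM, lay above those in PPZ plus BL. Glyma.14G103100 had 0.352, 0.657 and 0.951 CPM in PPZ plus BL (−4.86 ± 0.64, adjusted p = 9.16e-04), a range that overlaps that of mock. For Glyma.17G222300 the PPZ plus BL levels were 2.91, 1.07 and 1.05 CPM (−4.39 ± 0.38, adjusted p = 1.48e-04), and for Glyma.19G094100 they were 1.21, 1.52 and 3.55 CPM (−4.34 ± 0.33, adjusted p = 9.25e-05). The PPZ plus BL range of Glyma.19G094100 overlapped that of mock, whereas that of Glyma.17G222300 began at the highest mock level and reached above it, and the PPZ levels of both lay far higher. Glyma.04G223200 had 10.4, 6.28 and 10.6 CPM in PPZ and 0.301, 0.657 and 0.450 after PPZ plus BL (−4.24 ± 0.33, adjusted p = 9.63e-05). Glyma.18G238600, without a count in mock, had 103 counts in the PPZ libraries and 3 in the PPZ plus BL libraries, a ratio of 36.7 (95% exact interval 12.2 to 181).

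Other genes stayed between the PPZ and the mock level. Glyma.18G213200 had 14.8, 15.7 and 30.8 CPM in PPZ plus BL, a log2 fold change of −2.20 ± 0.26 from PPZ (adjusted p = 6.25e-04) and of 3.31 ± 0.38 over mock (adjusted p = 1.46e-03). Its PPZ plus BL libraries overlapped the BL libraries, at 17.2, 29.9 and 24.3 CPM. Glyma.10G011300 had 29.3, 38.5 and 36.2 CPM in PPZ plus BL, and its decrease of −1.20 ± 0.20 from PPZ passed the adjusted p (2.52e-03) but not the fold threshold. The abundant Glyma.04G076200 also passed the adjusted p and not the fold threshold, with −0.88 ± 0.15 (adjusted p = 3.23e-03, edgeR). Its PPZ plus BL libraries, however, overlapped those of mock. At an adjusted p of 0.01 and any fold, 61 members were lower and 6 higher in PPZ plus BL than in PPZ, beside backgrounds of 11.5% lower and 7.96% higher, and 51 were higher and 6 lower after PPZ than in mock, beside 11.2% and 8.35%. When libraries were scaled by their size alone, the median of all genes tested moved by 0.189 on the log2 scale in PPZ plus BL against PPZ, and the calls over all genes went from 787 higher and 2042 lower to 1161 and 1798, while the WRKY counts were 1 higher and 31 lower. At any fold, that scaling turned the balance over all genes from 2898 higher and 4173 lower to 4654 and 3374 in this comparison, and from 4080 higher and 3030 lower to 3556 and 4177 for PPZ against mock, where the median of all genes moved to −0.121. The WRKY counts at any fold were not computed under it.

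The gene called higher in PPZ plus BL than in PPZ was again Glyma.05G123600, at 3.25 ± 0.56 (adjusted p = 3.32e-03), and its PPZ plus BL level did not differ from mock by more than the spread (log2 fold change 0.00 ± 0.50). This call was lost without PPZ replicate 1 (2.94) or PPZ replicate 3 (3.13). Of the 33 genes called lower, 22 were called in each of the 6 fits that left out 1 library, in which the total lay between 25 and 32.

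**Figure D4:**
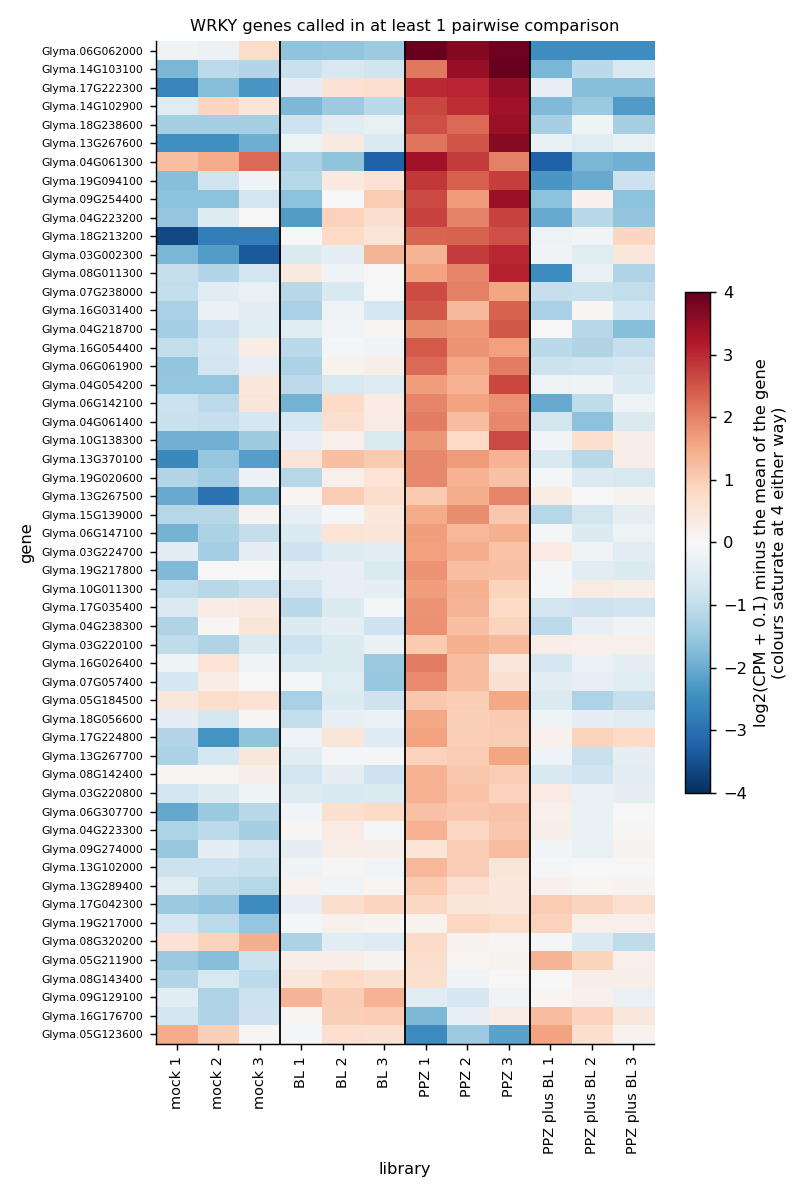
Levels of the 54 WRKY genes called in at least 1 of the 6 comparisons of 2 groups (rows) in the 12 libraries (columns), as log2(CPM + 0.1) minus the mean of the gene, with colours that saturate at 4 in either direction. Most rows are red in the 3 PPZ libraries only; the rows were chosen by these calls and ordered by the PPZ values, so the colours describe them and test nothing.

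BL against mock compares seedlings given the hormone alone with mock seedlings, whose schedule is not stated. Of 140 WRKY genes tested, 9 were called higher after BL, where 4.67% of all 36466 genes tested were, and 2 were called lower, where 3.38% were. The median log2 fold change was −0.01 over the members and 0.01 over all genes, with 69 members above 0 and 71 below.

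Glyma.18G213200 led here as well, with the BL levels given above and a log2 fold change of 3.53 ± 0.30 over mock (adjusted p = 7.39e-04, edgeR). Glyma.13G370100 had 32.7, 53.4 and 48.1 CPM in BL (3.02 ± 0.31, adjusted p = 1.04e-03). These were the genes that kept their call in each of the 6 fits that left out 1 library. Glyma.13G267500 had 1.78, 0.891 and 2.41 CPM in mock and 8.01, 15 and 12.5 in BL (2.79 ± 0.38, adjusted p = 2.15e-03), and Glyma.17G222300 had 2.84, 5.52 and 5.73 CPM in BL (2.67 ± 0.39, adjusted p = 2.70e-03). Glyma.09G129100, Glyma.17G042300, Glyma.06G307700 and Glyma.16G176700 were the further genes called higher, with log2 fold changes of 2.55, 2.40, 2.02 and 1.75. The last of the 9 was Glyma.08G143400 (WRKY40), studied for its part in resistance to the oomycete Phytophthora sojae, with 0.661, 0.996 and 0.735 CPM in mock and 2.28, 2.93 and 2.55 in BL. Its log2 fold change was 1.70 ± 0.27 (adjusted p = 3.36e-03), and the call was lost whichever of the 6 libraries was left out, at log2 fold changes between 1.58 and 1.89.

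The genes called lower after BL were Glyma.04G061300 and Glyma.08G320200. Glyma.04G061300 (chromosome 4, 4982291 to 4984372) had 2.09, 2.57 and 4.49 CPM in mock, 0.284, 0.212 and 0 in BL, 9.66, 6.48 and 3.72 in PPZ, and 0, 0.164 and 0.150 after PPZ plus BL. Every library given BL lay under every library without it. The log2 fold change was −4.08 ± 0.66 from mock to BL (adjusted p = 3.66e-03) and −5.86 ± 0.60 from PPZ to PPZ plus BL (adjusted p = 3.02e-04), and the first of these calls was lost without BL replicate 1 (−4.68), BL replicate 2 (−4.23) or mock replicate 2 (−4.19). Glyma.08G320200 had 82.6, 104 and 151 CPM in mock and 22.8, 40.6 and 38.6 in BL (−1.72 ± 0.29, adjusted p = 4.10e-03), a call kept only when mock replicate 1 was left out. The count of WRKY genes called after BL, 11 in all, was 7, 3 and 3 without BL replicates 1, 2 and 3, and 12, 4 and 6 without mock replicates 1, 2 and 3. The background moved with it, from 1704 higher and 1234 lower over all genes to 717 and 673, 478 and 485, and 565 and 549 without BL replicates 1, 2 and 3, and to 2924 and 1856, 607 and 635, and 1067 and 882 without mock replicates 1, 2 and 3.

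The interaction asks whether the change that came with BL differed between seedlings with and without PPZ, and was tested as the change from PPZ to PPZ plus BL minus the change from mock to BL, in a fit of all 12 libraries, at an adjusted p of 0.01 with no fold threshold. With PPZ given for 2.5 days in PPZ and 2 days in PPZ plus BL, a changed BL effect and a shorter PPZ treatment cannot be told apart here. The same value is also the change from BL to PPZ plus BL minus the change from mock to PPZ. It therefore shares its libraries with PPZ against mock and is not independent of that comparison. Of 155 WRKY genes tested, 40 were called with a value below 0, that is, a lower change with PPZ, where 9.6% of all 37832 genes tested were. With a value above 0, 2 were called, where 7.77% of all genes were. Called or not, 109 members had a value below 0 and 46 a value above 0. The median interaction value was −0.54 over the members and −0.01 over all genes. Glyma.18G238600, 1 of the 40, had fewer than 10 counts in every library outside PPZ and could be tested through its PPZ libraries alone. With library size alone as the scaling, the calls over all genes went from 2938 higher and 3630 lower to 3892 and 3015, while the WRKY counts were 3 and 38. The smallest p belonged to Glyma.18G213200, for which BL went with a rise in the absence of PPZ and a fall in its presence (interaction −5.70 ± 0.44, adjusted p = 2.60e-05). The same opposite signs were measured for Glyma.17G222300 (−7.04 ± 0.60, adjusted p = 4.56e-05) and Glyma.13G370100 (−5.08 ± 0.50, adjusted p = 8.89e-05). Of the 40 genes, 25 were called in each of the 12 fits that left out 1 library. The genes called with a value above 0 were Glyma.05G123600 (3.79 ± 0.74) and Glyma.09G280200 (1.75 ± 0.36). The second was named after its value was seen because so few were counted.

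The changes from mock to BL and from PPZ to PPZ plus BL were measured in different libraries. Among 139 WRKY genes tested in both, 10 were called for BL against mock, 25 for PPZ plus BL against PPZ and 4 for both, which is 40.0% and 16.0% of these sets. Of these 4, Glyma.04G061300 moved in the same direction in both, and Glyma.18G213200, Glyma.13G370100 and Glyma.17G222300 rose in the first and fell in the second. Over all genes, 591 of 2661 and 2537 were called in both, and 497 of the 591 in the same direction.

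PPZ plus BL against mock compares the seedlings given both agents with those given neither. Of 139 WRKY genes tested, 7 were called higher, where 3.82% of all 36133 genes were, and 2 lower, where 3.11% were, with a median log2 fold change of 0.09. Beside Glyma.18G213200, the higher genes were Glyma.03G002300, Glyma.17G224800, Glyma.17G042300, Glyma.13G267500, Glyma.05G211900 and Glyma.16G176700, with log2 fold changes between 1.95 and 2.88. Glyma.17G042300 had 1.37, 1.26 and 0.612 CPM in mock, 3.13, 6.58 and 7.24 in BL, 7.14, 5.68 and 5.51 in PPZ, and 8.14, 7.55 and 6.45 after PPZ plus BL. All 9 treated libraries of this gene lay above the mock libraries, and its log2 fold changes over mock were 2.40 ± 0.43, 2.52 ± 0.32 and 2.80 ± 0.31. The lower genes were Glyma.04G061300 (−4.74 ± 0.64, adjusted p = 2.53e-03) and Glyma.14G102900 (−2.54 ± 0.51, adjusted p = 9.44e-03). The count of 9 was 14 without mock replicate 1, 3 without mock replicate 2, and 4, 1 and 3 without PPZ plus BL replicates 1, 2 and 3, while the calls over all genes lay between 314 and 2749 higher and between 347 and 1674 lower with 1 library left out. Glyma.18G213200 was called in all 6 of those fits, Glyma.17G042300 in 5, and the other genes in 3 or 1. Glyma.03G002300 also lost its call with median-ratio size factors, without the filter on low counts and in a fit of all 12 libraries, and Glyma.14G102900 with library size alone.

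PPZ plus BL against BL sets seedlings given both agents beside those given BL alone. Of 141 WRKY genes tested, 0 were called, and over all 36006 genes tested 0.00278% were called higher and as many lower. By edgeR, 24 members (17%) had an unadjusted p under 0.05, against 21.8% of all genes, and the smallest adjusted p of a member was 0.0827. DESeq2 called 0 members, and 27 genes higher and 165 lower over the whole table. Without BL replicate 1, edgeR called 3 genes higher and 74 lower over the whole table and 0 members. Among members with at least 1 CPM, the log2 fold changes lay between −1.99 (Glyma.04G223200) and 1.43 (Glyma.07G133700).

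PPZ against BL sets the single treatments side by side, at their different times of 2.5 and 0.5 days. Of 151 WRKY genes tested, 30 were called higher in PPZ than in BL, where 4.85% of all 36443 genes tested were, and 2 were called lower, where 2.01% were, with a median log2 fold change of 0.59. Some of the 30, Glyma.06G062000 among them, had fewer than 10 counts in every BL library and could be tested through their PPZ libraries alone. Glyma.06G062000 had the largest difference, with the PPZ and BL levels given above and a log2 fold change of 6.46 (adjusted p = 4.16e-05, edgeR). Its BL libraries held 2 counts each, so this fold is known only roughly. The lower genes were Glyma.05G123600 (−2.74 ± 0.42) and Glyma.09G129100 (−1.94 ± 0.34), the latter with 1.14, 0.849 and 1.15 CPM in BL and 0.257, 0.201 and 0.338 in PPZ. Glyma.05G184500, singled out after its values were seen, had 28.2, 33.4 and 30.2 CPM in mock, 8.25, 14.0 and 11.4 in BL, 42.9, 40.7 and 60.4 in PPZ, and 13.7, 8.70 and 10.8 after PPZ plus BL. Its libraries with BL all lay under those without. With library size alone as the scaling, the calls over all genes went from 1767 higher and 733 lower to 1502 and 1024, while the WRKY counts were 26 and 2.

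The 16 members with the plant zinc cluster domain of group IId were all tested. After PPZ, 15 of their log2 fold changes were above 0 and 1 below, with a median of 0.45, and Glyma.13G102000 alone was called, a share of 6.25% beside 6.32% of all genes. It had 38.5, 39.2 and 37.0 CPM in mock, 62.6, 72.1 and 64.5 in BL, 173, 136 and 97.4 in PPZ, and 67.6, 70.0 and 69.8 after PPZ plus BL, a log2 fold change of 1.83 ± 0.20 after PPZ (adjusted p = 1.02e-03). At any fold, 4 members of the group passed the adjusted p after PPZ, all higher, beside 11.2% of all genes, and 8 passed in PPZ plus BL against PPZ, all lower, beside 11.5%. Whether the group differed from the other 157 members was not tested.

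Some called members lie next to each other in the genome, a grouping that was added once the values had been seen. Of the 29 members with another member within 50000 bases, 24 were tested after PPZ and 13 of them (54.2%) were called higher, beside 38 of all 149 members tested and 6.32% of all genes. In 3 neighbouring pairs both genes were called. Glyma.04G223200 and Glyma.04G223300 (WRKY58) lie 5000 bases apart and had log2 fold changes of 3.16 and 2.34, Glyma.06G061900 (WRKY17) and Glyma.06G062000 lie 8740 bases apart with 2.79 and 3.93, and Glyma.13G267500 and Glyma.13G267600 lie 2186 bases apart with 3.70 and 7.53. In the last cluster Glyma.13G267400, 5157 bases from Glyma.13G267500, had a log2 fold change of −0.58, and Glyma.13G267700 had 1.55 (adjusted p = 0.0289), so not every member of the cluster was called. Glyma.04G061300 and Glyma.04G061400 lie 6876 bases apart and differed after BL, at −4.08 ± 0.66 and 1.04 ± 0.36 (adjusted p = 0.0508 for the second). Where neighbours are close copies, the counting may have divided their reads between them.

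Proteins known to work with WRKY factors in plant defence were counted in the same fits. VQ proteins bind WRKY domains and alter their activity, and of 58 VQ genes tested (of 72) 11 were called higher and 3 lower after PPZ, with a median log2 fold change of 0.23. In PPZ plus BL against PPZ, 2 of them were called higher and 9 lower, and after BL alone 5 of 57 were higher and 0 lower. Calmodulin-binding CBP60 proteins, of which some drive salicylic acid synthesis in Arabidopsis, had 4 of 19 genes higher and 0 lower after PPZ, 4 lower and 0 higher in PPZ plus BL against PPZ, and 0 called after BL, where edgeR gave 9 of them an unadjusted p under 0.05. NPR1-like proteins, which perceive salicylic acid, had 4 of 5 genes tested and 0 called in these 3 comparisons by edgeR, with an unadjusted p under 0.05 for 2 after BL, 1 after PPZ and 0 in PPZ plus BL against PPZ. DESeq2 counts of these lists were not computed. The shares of all genes called are those given above for each comparison. By edgeR, 18859 of all 36466 genes had an unadjusted p under 0.05 after BL, and 18138 of 36297 after PPZ. In PPZ plus BL against PPZ, 16031 of 36401 did.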

How the data were processed

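The authors aligned paired-end reads of 12 poly(A) libraries with HISAT2 2.0.5, counted reads per gene with featureCounts 1.5.0-p3 and deposited raw counts without normalization (identifiers of Wm82.a4.v1). The strand setting is not given in the sources used here. Deposited FPKM values and the authors' DESeq2 fold changes and p-values of 5 comparisons were not used. Gene lengths per the file headers served only for levels per kilobase.

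The edgeR package (4.0.16, R 4.3.3) was run on the counts of all genes (filterByExpr, TMM, glmQLFit, glmQLFTest), on the 6 libraries of each comparison, with Benjamini-Hochberg adjustment over all genes tested. A gene was called at an adjusted p of at most 0.01 when it differed at least 3-fold; the interaction used 12 libraries and no fold threshold. Each standard error was taken from the log2 fold change and the F statistic. The fits were tested on simulated counts.

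Alternatives were all 12 libraries in one fit, size factors by median ratio or by library size alone, DESeq2 1.42.0, no filter on low counts, the replicate number as a block, no fold threshold, an adjusted p of 0.05, and each library left out in turn. Genes named by rule were the 10 largest increases and decreases of a comparison (at least 10 counts in each library of the higher group, no overlap), the 5 highest mean CPM and the 5 smallest interaction p-values. The members and lists were chosen with earlier results of these data known. RefSeq genes (Glycine_max_v4.0) were matched by overlap of at least 0.8 of the longer gene. Python 3.11.15 with pandas 2.3.3, Matplotlib 3.10.9 and NumPy 2.4.6 was used for tables and plots.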

Additional observations from a re-analysis of the deposited data

Results flagged for a closer look

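The change from PPZ to PPZ plus BL differed from the change from mock to BL for 42 WRKY genes by the interaction test (adjusted p of 0.01 or less in a fit of all 12 libraries, 40 of them lower with PPZ and 2 higher, beside 9.6% and 7.77% of all genes tested). The 5 members with the smallest p are given here. Glyma.18G213200 had an interaction value of −5.70 on the log2 scale, Glyma.17G222300 of −7.04, Glyma.13G370100 of −5.08 and Glyma.13G267500 of −4.18, and in each the mean level was higher in BL than in mock and lower in PPZ plus BL than in PPZ. Glyma.04G223300 had −2.42, with 15.7, 18.1 and 14.7 CPM in mock, 38.7, 46.9 and 35.6 in BL, 98.0, 66.5 and 79.3 in PPZ, and 44.2, 31.0 and 38.4 in PPZ plus BL. These 5 genes were called in each of the 12 fits that left out 1 library. A changed BL effect and the shorter PPZ treatment of the PPZ plus BL group (2 days against 2.5) cannot be told apart. The interaction also shares its libraries with PPZ against mock, so it is not a separate finding beside the rise after PPZ.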

How the results depend on the processing

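The alternatives were checked for 42 called results of genes named by rule. These came from the comparisons against mock and from PPZ plus BL against PPZ. None of their log2 fold changes changed sign, but all were at least 3-fold different, so a change of sign was unlikely. Named genes that were not called, with log2 fold changes near 0 among them, were not in this check. Scaling by library size alone turned the balance of calls over all genes for the interaction. At any fold it did so for PPZ against mock and for PPZ plus BL against PPZ, with the counts given above. For PPZ against BL, the counts at any fold went from 4911 higher and 4679 lower to 3651 and 6964. For PPZ plus BL against mock, they went from 2487 and 2654 to 2753 and 2439. Without the fold threshold, 19 of 140 WRKY genes passed for BL against mock (11 with it), beside 3914 higher and 3911 lower of all 36466 genes. For PPZ plus BL against mock 21 of 139 passed (9), beside 2487 and 2654 of 36133. For PPZ plus BL against PPZ 67 of 153 passed (34), beside 2898 and 4173 of 36401. For PPZ against BL 54 of 151 passed (32), beside 4911 and 4679 of 36443. At an adjusted p of 0.05 the interaction counted 72 of 155 (42), beside 12937 of 37832. In one fit of all 12 libraries, 17 were called for BL and 15 for PPZ plus BL against mock. Of all 37832 genes in that fit, 2320 were called higher and 1458 lower for BL. For PPZ plus BL, 2198 were called higher and 1416 lower. DESeq2 called 14, 43, 13 and 35 members for BL, PPZ and PPZ plus BL against mock and for PPZ plus BL against PPZ. Over all genes it called, in the same order, 2295 higher and 1628 lower, 2944 and 1491, 2137 and 1557, and 942 and 2313. For PPZ against BL and for the interaction DESeq2 called 37 and 62 members, where edgeR called 32 and 42. Over all genes, DESeq2 called 2050 higher and 833 lower for the former and 4270 and 5584 for the latter. With 1 library left out, the counts ranged from 3 to 12 for BL against mock, 24 to 37 for PPZ against mock, 1 to 14 for PPZ plus BL against mock, 25 to 32 for PPZ plus BL against PPZ, 24 to 30 for PPZ against BL, 0 to 0 for PPZ plus BL against BL and 29 to 48 for the interaction. Over all genes, the calls in these fits ranged from 1205 to 3100 higher and from 407 to 1504 lower for PPZ against mock. For PPZ plus BL against PPZ they were 467 to 801 and 1592 to 2170, and for PPZ against BL 1375 to 1748 and 507 to 730. For PPZ plus BL against BL they were 0 to 6 and 0 to 74, and for the interaction 1651 to 3462 and 2205 to 5781. Those for BL and for PPZ plus BL against mock are given above. In no comparison was every correlation between the deviations of same-numbered libraries over 0.1. All were positive for BL against mock (0.1415, 0.1011 and 0.041), and all were negative for PPZ plus BL against mock and against BL. With 3 libraries per group, these values cannot decide whether the replicate numbers pair the libraries. With the replicate number as a block, the counts were 7 for BL, 32 for PPZ and 2 for PPZ plus BL against mock, 25 for PPZ plus BL against PPZ, 30 for PPZ against BL and 33 for the interaction. Over all genes, the block gave 1403 higher and 1001 lower, 1743 and 711, and 313 and 441 against mock. For PPZ plus BL against PPZ, PPZ against BL and the interaction, it gave 496 and 1695, 1621 and 587, and 2050 and 2634. For the 42 called results, 476 of 588 values under an alternative stayed on the same side of the threshold and 112 lost the call. No fold threshold and an adjusted p of 0.05 are among these alternatives and could only keep a call. With 1 library left out, 31 values kept the call and 35 lost it for BL against mock, and 49 and 17 for PPZ against mock. The numbers were 24 and 30 for PPZ plus BL against mock, and 58 and 8 for PPZ plus BL against PPZ. Genes with few counts in the lower group carry wide intervals, and 18 members were too rare for any test.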
